A study of Mus musculus with 7 samples.

Results

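Retsat, the gene of retinol saturase, and 8 further genes that carry, store, make, sense and destroy retinoids were examined in fasted livers of WT and SHIVA mice. The 9 members were taken by name as Retsat, Rbp4, Lrat, Cyp26a1, Cyp26b1, Aldh1a1, Aldh1a2, Rarb and Rdh10. They are 9 of the 36492 gene names on the array, and all 9 were among the 20002 genes that could be tested. A total of 10 probes carried a member's name, with 1 probe for each of 8 members and 2 for Rarb. The study asked how a mutation of Sox17, a transcription factor of the endoderm, affects gene expression in the liver after fasting. Livers of 3 WT and 4 SHIVA mice were each hybridised to a single-colour array. Both groups were C57BL/6 females aged 8 to 12 weeks and fasted for 24 h, and they differed in genotype, wildtype in WT and Sox17 mutation in SHIVA. The SHIVA line came from a chemical mutagenesis screen, and according to the study's methods its viable mutants carry the mutation on a single allele. Fed mice were not analysed here. The arrays read whole liver, where fewer cells of a type and less RNA per cell cannot be told apart.

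Vitamin A reaches the liver as retinyl ester and is stored mainly in hepatic stellate cells, in which Lrat makes the ester from retinol. Hepatocytes release retinol into blood bound to Rbp4 and its partner Ttr. Retinol is oxidised to retinal by dehydrogenases such as Rdh10, and retinal to retinoic acid by the Aldh1a enzymes. Retinoic acid switches on genes through the receptors RAR and RXR and is cleared by the Cyp26 enzymes, and both Rarb and Cyp26a1 are classical retinoic acid targets. Retsat lies outside this chain, as it saturates a double bond of retinol to give dihydroretinol.

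Signals were quantile-normalized and put on the log2 scale, and a gene was called when its adjusted p from limma, over all genes tested, was under 0.05. The 7 arrays correlated at 0.972 to 0.9931, and 44.5% to 48.7% of probes were well above background. The hepatocyte marker list, with Alb and Apoa2 among its genes, had a mean of 16.4 to 16.57 in WT and 16.46 to 16.56 in SHIVA livers, bright in every liver. All arrays shared 1 slide and 1 scan, but WT arrays sat in slide row 1 and SHIVA arrays in row 2, so that row and genotype cannot be told apart. The livers were not alike in acute phase genes. SHIVA_2 had a log2 signal of 17.36 for Saa2, against 11.99 to 12.82 in the other SHIVA livers. The Sox17 probe on chromosome 1 was at 3.42 to 4.53 in WT and 4.47 to 4.77 in SHIVA livers (log2 fold change 0.69, limma adjusted p = 0.28), and this reading of its RNA does not check the mutation. In the fit over all genes, 75 genes (0.375%) were called, and leaving out single livers moved that count from 3 without WT_1 to 416 without WT_3.

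Of the 9 members, 1 was called, and it was lower in SHIVA livers. This was Retsat. Among all genes 0.19% were called lower. Aldh1a2 was well above background on 1 of 3 WT and all 4 SHIVA arrays. It could be tested only because of its SHIVA values, so it is left out of the counts that follow. Of the other 8 members, SHIVA over WT gave log2 fold changes below 0 for 6 and above 0 for 2, and their median was -0.20, where the median over all genes was -0.01 and 51.2% of genes were below 0. WT and SHIVA values did not overlap for 3 of the 8, Retsat, Cyp26b1 and Aldh1a1, whereas 12.2% of all genes had no overlap. An unadjusted p under 0.05 was found for the same 3 members and for 2667 of all genes. The remaining 5 members, Rbp4, Lrat, Rdh10, Cyp26a1 and Rarb, overlapped between genotypes.

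**Figure D1:**
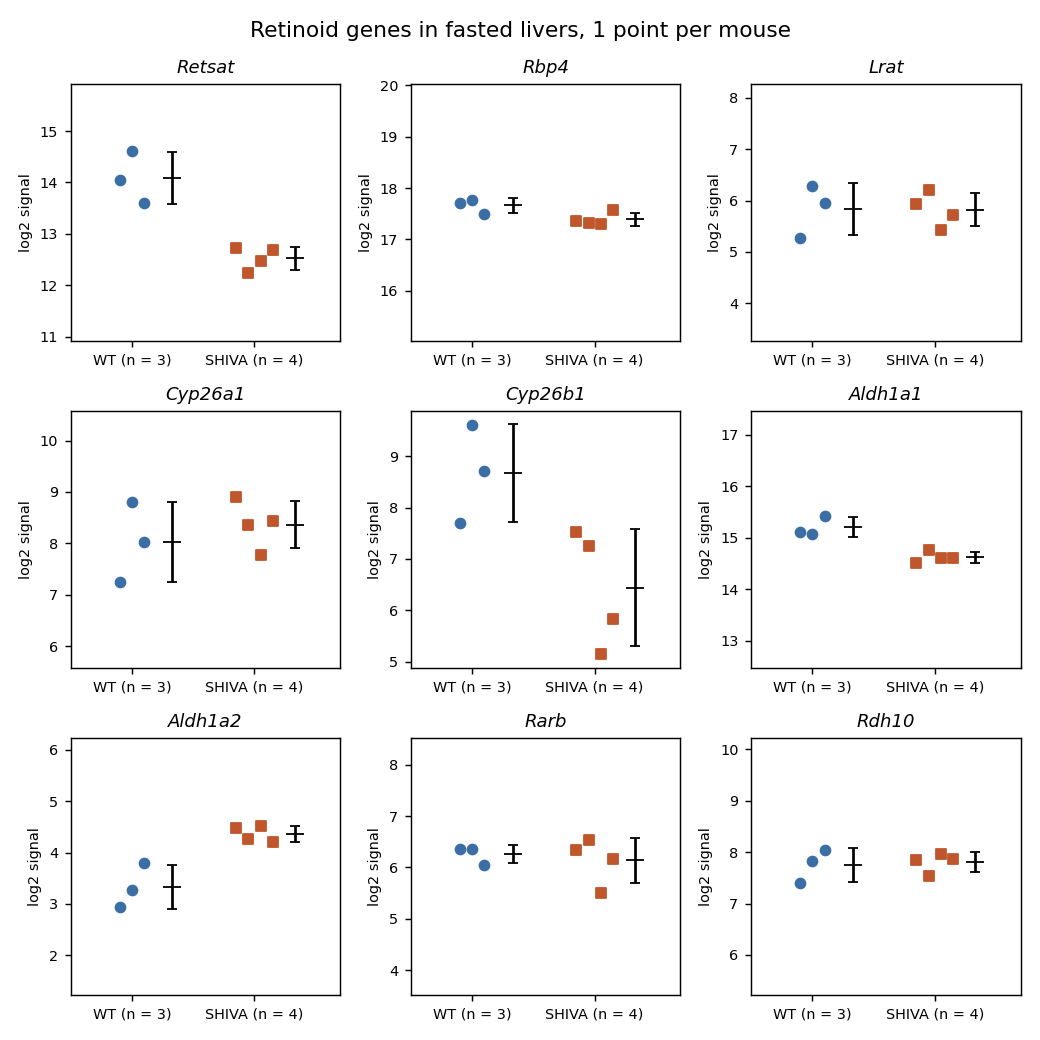
Log2 signal (vertical axis, 5 log2 units high in every panel) of the 9 members in 3 WT (circles) and 4 SHIVA livers (squares), 1 point per mouse, with the mean and SD beside the points. Retsat, Cyp26b1 and Aldh1a1 lay lower in all SHIVA livers, Aldh1a2 lay higher in all of them, and the other members overlapped.

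Retsat was the member with the clearest difference. It was read by a probe on chromosome 6 (mm9, chr6:72556656-72556715, plus strand) that starts at base 1452 of its transcript and has an open reading frame over its whole length. The probe is printed because the only call among the members rests on it, and no second probe of Retsat was on the array.
Retsat probe: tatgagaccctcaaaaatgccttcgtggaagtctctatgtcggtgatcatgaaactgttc
The log2 signal of Retsat was 14.04, 14.61 and 13.60 in the WT livers and 12.72, 12.24, 12.46 and 12.68 in the SHIVA livers. The lowest WT liver was thus above the highest SHIVA liver by more than the whole spread of the SHIVA group, and WT livers varied more among themselves, with WT_2 highest and WT_3 lowest. The means were 14.09 ± 0.51 (SD, n = 3) and 12.52 ± 0.22 (SD, n = 4). The log2 fold change was -1.56 (SE 0.24, 95% interval -2.12 to -1.004, limma adjusted p = 0.0455), a level 2.95-fold higher in WT. Retsat stood 69th of all genes by p, which placed it close to the threshold. Retsat is among the genes that the study chose to display from these same arrays, so its direction is not independent evidence. From these arrays the study also listed retinol metabolism among the pathways lower in SHIVA livers, by a pathway score that was not computed here.

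Retsat kept its direction in every one of 18 alternative analyses, with log2 fold changes between -1.80 and -1.30, but passed the threshold in 7 of them. Among the 7 fits that left out 1 liver, the call held only without WT_3 (adjusted p = 0.016 from limma). The call was lost without WT_1, WT_2, SHIVA_1, SHIVA_2, SHIVA_3 or SHIVA_4, with adjusted p from 0.0699 to 0.201.

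**Figure D2:**
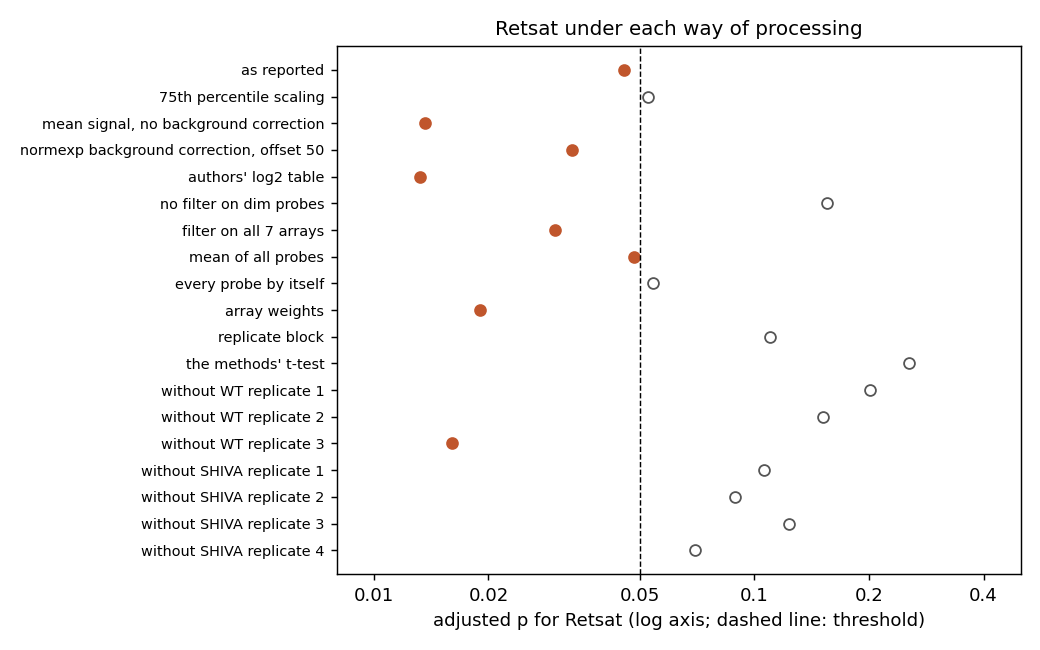
Adjusted p of Retsat (horizontal axis, log scale) as reported and under each of 18 alternatives (rows), filled where it was under the threshold of 0.05 drawn as a dashed line. Filled points are the reported analysis and 7 alternatives, and of the 7 fits without 1 liver only the fit without WT_3 is filled.

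The genes whose signal followed Retsat most closely across the 7 livers were Cited4, a transcriptional co-activator, with a Pearson correlation of 0.994, and Rbm48 and Cdk5rap1, at 0.991 and 0.989. Cited4 was at 7.30, 7.70 and 6.93 in WT and 5.90, 5.38, 5.76 and 5.74 in SHIVA livers, so it shared with Retsat both the gap between genotypes and the order of the WT livers. It was also called (log2 fold change -1.61, limma adjusted p = 0.0268). Rbm48 (-0.50, adjusted p = 0.211 from limma) and Cdk5rap1 (-0.84, adjusted p = 0.0729) were not. The other 2 of the 5 closest were probes for intergenic transcripts, both at 0.989. These correlations describe 7 points over 19960 genes and include the difference between genotypes. When the mean of each genotype was first subtracted, the 4 closest named genes were Borcs5 at 0.994, Nrip1 at 0.984, and Rprd1b and Znrd2 at 0.983. Nrip1, a nuclear receptor corepressor and retinoic acid responsive gene, had a log2 fold change of -0.54 (limma adjusted p = 0.343).

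Among the members themselves, Rbp4 went most closely with Retsat, at a correlation of 0.89 over the 7 livers and 0.74 after the genotype means were subtracted, and 1.62% of all genes had a higher value than 0.89. Aldh1a1 correlated with Retsat at 0.721 over the livers but at -0.881 within genotypes, as the WT liver with the most Aldh1a1 had the least Retsat and the SHIVA liver with the most Aldh1a1 likewise. Cyp26b1 was at 0.777 and 0.247 by the same measures, and Aldh1a2 at -0.904 and -0.42. Lrat, Cyp26a1, Rarb and Rdh10 lay between -0.105 and 0.246 over the 7 livers.

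For the supply of retinol to blood, Rbp4, the plasma retinol carrier (mm9, chr19:38191120-38191179, minus strand), was brighter than all but 0.14% of genes. Its log2 signal was 17.72, 17.77 and 17.50 in WT and 17.36, 17.32, 17.30 and 17.57 in SHIVA livers. Only SHIVA_4 overlapped the WT range, by passing WT_3. The log2 fold change of -0.27 (SE 0.14, 95% interval -0.60 to 0.06) was not called (limma adjusted p = 0.469), and the interval runs from 0.658-fold to 1.04-fold of the WT level. Ttr, the thyroxine carrier that binds Rbp4 in plasma, was at 16.64, 16.69 and 16.62 in WT and 16.29, 16.18, 16.44 and 16.43 in SHIVA livers. All SHIVA livers were lower than all WT livers for Ttr, and SHIVA_2, the liver with the most Saa2, was the lowest (log2 fold change -0.32, limma adjusted p = 0.364). Without SHIVA_2 the log2 fold change of Rbp4 was -0.25, and the part of the acute phase genes in these values was not tested. Stra6l, which encodes a liver receptor for Rbp4, had a log2 fold change of 0.41 and was not called, and Stra6, the receptor of other tissues, was not well above background on any array.

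For storage, Lrat, the enzyme that esterifies retinol (mm9, chr3:82696805-82696864, minus strand), was at 5.28, 6.27 and 5.96 in WT and 5.92, 6.20, 5.43 and 5.73 in SHIVA livers. The genotypes overlapped almost completely, and the lowest value was in WT_1. Its log2 fold change was -0.01 (SE 0.27, 95% interval -0.63 to 0.60, limma adjusted p = 0.988), an interval from 0.648-fold to 1.51-fold of the WT level. Its sign depended on which liver was left out. The 12 stellate cell markers, such as Dcn, Ecm1 and Cygb, had means of 8.19 to 8.69 in WT and 8.50 to 8.83 in SHIVA livers, with 8 higher, 4 lower and 0 called by limma, and 2 under an unadjusted p of 0.05. Within that list Ngfr (log2 fold change 0.73, limma adjusted p = 0.15) and Colec11 (0.28, adjusted p = 0.39) were higher in all SHIVA livers, and Des (-0.24, adjusted p = 0.505) was lower in all of them. The largest fold change of the list was that of Col3a1 (0.99, limma adjusted p = 0.276), whose values overlapped between genotypes. Ngfr and Col3a1 were the 2 under an unadjusted p of 0.05.

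Lpl, lipoprotein lipase, which among other lipids can free retinol from the retinyl ester of lipoproteins, had the largest difference of the retinoid genes tested outside the members. It was at 7.46, 6.95 and 8.07 in WT and 9.46, 9.95, 9.71 and 9.27 in SHIVA livers. The genotypes were separated by more than the whole range of either group. The log2 fold change was 2.11 (SE 0.28, limma adjusted p = 0.0268), a 4.3-fold higher level in SHIVA. A further probe of Lpl gave 2.06 (limma adjusted p = 0.025). The call held in 3 of the 7 fits without 1 liver and was lost without WT_1, WT_2, SHIVA_1 or SHIVA_3 (limma adjusted p up to 0.154). Lpl is also made by macrophages and adipocytes. All 5 Kupffer cell markers had fold changes above 0 and 0 of them were called by limma, with 1, Marco, under an unadjusted p of 0.05. The mean of these 5 markers was 10.62 to 11.99 in WT and 11.39 to 12.44 in SHIVA livers, which overlapped. Of 5 adipocyte markers, Plin1, Lep and Cfd were not well above background on any array, Adipoq was so on 1 SHIVA array, and Fabp4 was at 8.11 to 8.97 in WT and 8.95 to 9.49 in SHIVA livers. The part of these cells in the level of Lpl was not tested.

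For the first oxidation step, Rdh10, a retinol dehydrogenase (mm9, chr1:16122062-16122121, plus strand), was at 7.40, 7.82 and 8.05 in WT and 7.84, 7.53, 7.97 and 7.88 in SHIVA livers. All SHIVA values fell inside the WT range. Its log2 fold change was 0.05 (SE 0.19, 95% interval -0.39 to 0.49, limma adjusted p = 0.944), and its sign depended on which liver was left out. Rdh10 lies on the chromosome of Sox17, with 11.6 Mb between the probes. Both probes lie within the stretch of chromosome 1 to which the study mapped the mutation and which it resequenced.

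For the second oxidation step, Aldh1a1, the main retinal dehydrogenase of liver (mm9, chr19:20717764-20717823, plus strand), was at 15.11, 15.07 and 15.43 in WT and 14.51, 14.77, 14.61 and 14.61 in SHIVA livers. All SHIVA livers lay below all WT livers, and the nearest pair was WT_2 and SHIVA_2. The means of 15.21 ± 0.20 (SD, n = 3) and 14.62 ± 0.11 (SD, n = 4) gave a log2 fold change of -0.58 (SE 0.15, 95% interval -0.93 to -0.24), 1.5-fold higher in WT. This was not called (limma adjusted p = 0.18), and no alternative called it, with values from -0.65 to -0.47. Its near copy Aldh1a7 was at 11.38 to 11.49 in WT and 11.56 to 11.75 in SHIVA livers, which did not overlap either but lay in the other direction (log2 fold change 0.21, limma adjusted p = 0.54). Genes this alike can share signal on a probe, so the levels of both are uncertain.

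Aldh1a2, the retinal dehydrogenase of embryos and of mesothelial and stromal cells (mm9, chr9:71143931-71143990, plus strand), was near the limit of detection, and 93.7% of genes were brighter. Its probe was well above background on 1 of 3 WT and 4 of 4 SHIVA arrays. The log2 signal was 2.95, 3.27 and 3.79 in WT and 4.48, 4.27, 4.51 and 4.20 in SHIVA livers, where the lowest signal well above background on an array was between 3.12 and 3.54. All SHIVA livers were above all WT livers, but WT_1 and WT_2 were below that limit on their own arrays. The fitted log2 fold change of 1.03 was not called (limma adjusted p = 0.108), and since Aldh1a2 entered the test through its SHIVA values, neither its size nor its p is a measure of the difference. The fitted value was 1.26 without WT_3 (limma adjusted p = 0.0223) and 1.12 with array weights (adjusted p = 0.0283). It was 0.34 with the mean signal that had no background taken off and 0.21 with the normexp correction. Among 6 mesothelial markers, Upk1b and Lrrn4 were not well above background on any array, Upk3b and Wt1 on at most 1 array of a genotype, Msln was at 5.95 to 6.35 in WT and 6.20 to 6.30 in SHIVA livers, and Gpm6a was higher in all SHIVA livers without being called (1.17, limma adjusted p = 0.133). The mean of the 2 tested markers was 4.95 to 5.32 in WT and 5.70 to 5.98 in SHIVA livers. That gap comes from Gpm6a, as Msln had a log2 fold change of 0.06 and overlapped. The part of mesothelial cells in the level of Aldh1a2 was not tested.

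For the clearance of retinoic acid, Cyp26b1, a retinoic acid hydroxylase (mm9, chr6:84521952-84522011, minus strand), had the largest fold of the members and the widest spread. It was at 7.69, 9.61 and 8.71 in WT and 7.52, 7.25, 5.15 and 5.84 in SHIVA livers. The groups did not overlap, but SHIVA_1 was just below WT_1, and each genotype ranged over about as much as the difference between them. The means were 8.67 ± 0.96 (SD, n = 3) and 6.44 ± 1.13 (SD, n = 4), with a log2 fold change of -2.23 (SE 0.64, 95% interval -3.68 to -0.78), 4.7-fold higher in WT. Cyp26b1 was not called (limma adjusted p = 0.207), nor under any alternative, with values from -2.72 to -1.51 and adjusted p from 0.137 to 0.49. Its probe lies on chromosome 6, as does that of Retsat.

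Cyp26a1, the inducible hydroxylase of liver (mm9, chr19:37775566-37775625, plus strand), did not share that direction. It was at 7.25, 8.81 and 8.03 in WT and 8.91, 8.35, 7.78 and 8.43 in SHIVA livers. WT_1 was the lowest of all 7 and WT_2 nearly the highest, so the SHIVA range lay almost wholly inside the WT range. The log2 fold change of 0.34 (SE 0.38, 95% interval -0.52 to 1.19) was not called (limma adjusted p = 0.756), and without WT_1 it was -0.05. Levels of Cyp26a1 and Lrat had a Pearson correlation of 0.794 over the 7 livers, a description of 7 points. Rarb, also a classical retinoic acid target, was at 0.35 with Cyp26a1 and 0.51 with Lrat. A shared response to retinoic acid was not tested. Of the other genes of clearance, Cyp2c39 was at 11.01 to 11.77 in WT and 10.53 to 11.26 in SHIVA livers (log2 fold change -0.67, limma adjusted p = 0.28), and Cyp26c1 and Cyp1a1 were not well above background on any array.

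**Figure D3:**
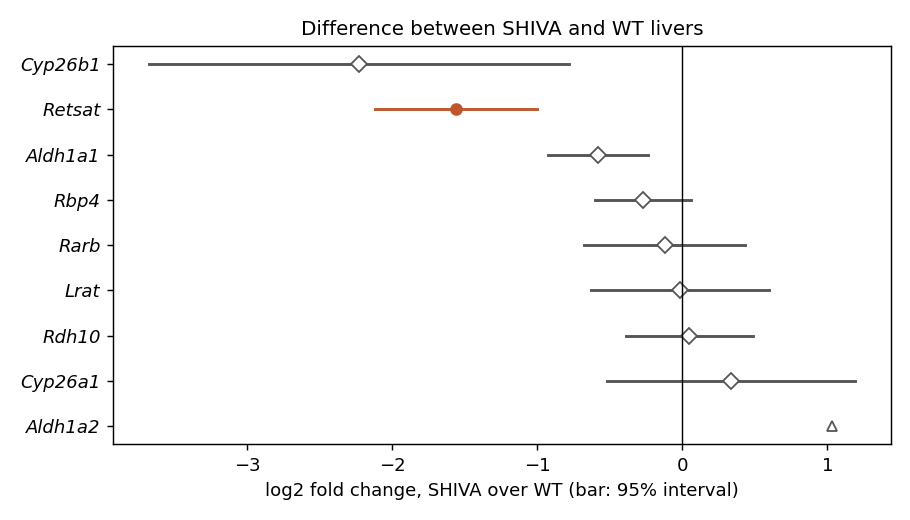
Log2 fold change of SHIVA over WT livers (horizontal axis) for the 9 members (rows), with the 95% interval from limma as a bar, 3 WT against 4 SHIVA livers. The filled circle is Retsat, the only member called, the intervals of Retsat, Cyp26b1 and Aldh1a1 leave out 0, and the triangle is Aldh1a2, drawn without an interval as it was well above background on 1 of 3 WT arrays.

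Rarb, the retinoic acid receptor whose own gene is driven by retinoic acid, was read by 2 probes on chromosome 14 (mm9, minus strand). The brighter probe (chr14:17263367-17263426) was at 6.36, 6.37 and 6.06 in WT and 6.35, 6.53, 5.51 and 6.16 in SHIVA livers, giving -0.12 for the log2 fold change (SE 0.24, 95% interval -0.68 to 0.43, limma adjusted p = 0.872). The other probe (chr14:17264648-17264707) was at 5.78, 5.55 and 5.12 in WT and 5.39, 5.42, 4.72 and 5.38 in SHIVA livers, with -0.26 (SE 0.23, adjusted p = 0.7 in a limma fit of every probe). Both probes overlapped between genotypes, and SHIVA_3 was the lowest liver on both. Without SHIVA_3 the brighter probe gave 0.09.

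Of the members whose promoter could be searched, only Rarb and Cyp26a1 had a direct repeat of RAR half-sites 5 bases apart (DR5) there. RefSeq promoters (build GRCm38.p6, 250 bases before to 50 after the start) were found for 8 of the 9 members, 10 promoters in all. None was found for Rdh10. The promoters found were searched on both strands for 2 half-sites in the same direction out of AGGTCA, the variant GGGTCA, the variant AGTTCA and the variant GGTTCA. The DR5 of Rarb lies at -53 to -37 from the start (chr14:16575513-16575529) and that of Cyp26a1 at -32 to -16, on the opposite strand to the gene (chr19:37697776-37697792). The 250 bases before each start are printed in the direction of the gene, with the repeat in capitals, since both genes are classical retinoic acid targets and hold the repeat. For Rarb they span chr14:16575477-16575726 (minus strand) and for Cyp26a1 chr19:37697558-37697807 (plus strand).
Rarb promoter: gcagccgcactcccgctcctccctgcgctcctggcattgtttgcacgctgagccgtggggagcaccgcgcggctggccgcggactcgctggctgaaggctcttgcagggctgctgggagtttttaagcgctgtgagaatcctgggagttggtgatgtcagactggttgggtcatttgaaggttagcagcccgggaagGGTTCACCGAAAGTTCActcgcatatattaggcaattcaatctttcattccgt
Cyp26a1 promoter: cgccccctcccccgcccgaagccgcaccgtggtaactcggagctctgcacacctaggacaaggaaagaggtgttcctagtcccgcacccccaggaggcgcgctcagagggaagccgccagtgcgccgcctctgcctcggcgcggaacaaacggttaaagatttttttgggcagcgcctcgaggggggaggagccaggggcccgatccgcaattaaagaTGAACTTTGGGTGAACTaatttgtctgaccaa
Such a repeat was present in 32 of 32851 promoters of the same length (0.0974%). Both repeats found are made only of the variants AGTTCA and GGTTCA, so finding them depended on the half-sites searched. Both genes were taken as classical retinoic acid targets beforehand, so the matches are not independent evidence. Repeats 1 base apart (0.222% of promoters) and 2 bases apart (0.268%) were in none of the members' promoters. Among the promoters of 41 of the 54 other retinoid genes described next, 0 held a DR5, 0 held a repeat 2 bases apart, and 1, that of Bco1, held a repeat 1 base apart. These matches describe letters in a short window and say nothing of binding. As given above, neither of the 2 genes with the repeat was called.

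The 54 other genes of retinoid handling given here were sorted by role, and some stand in more than 1 list. All had a probe and 42 were tested, of which 25 had a log2 fold change below 0 and 17 above 0, with a median of -0.05. By limma 1 of them was called, Lpl, which was higher in SHIVA livers. WT and SHIVA values did not overlap for 9 of the 42 (21.4%), beside 12.2% of all genes, and 13 had an unadjusted p under 0.05. The 9 were Lpl, Ttr, Lipe, Rdh16, Rdh5, Rdh1, Aldh1a7, Rxrg and Rarres1.

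Among 13 genes that make, break or take up retinyl esters or cleave provitamin A, 12 were tested, 9 below 0 and 3 above. Lipe, hormone-sensitive lipase, was at 6.01, 6.88 and 6.63 in WT and 5.89, 5.90, 5.61 and 5.73 in SHIVA livers, lower in each of the latter but not called (log2 fold change -0.73, limma adjusted p = 0.225). The brightest genes of this list were the carboxylesterases Ces1d, Ces1f, Ces1e and Ces1g, with log2 fold changes from -0.31 to -0.05 and none of them called. Bco1, which cleaves beta-carotene, was at 6.13 to 6.32 in WT and 5.34 to 6.59 in SHIVA livers.

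Of 20 other oxidoreductases of retinol and retinal, 17 were tested, 7 below 0 and 10 above, and limma called 0 of them, with 5 under an unadjusted p of 0.05. Rdh16, a retinol dehydrogenase, was at 10.70, 11.01 and 10.79 in WT and 10.40, 10.41, 10.14 and 10.28 in SHIVA livers, so all SHIVA livers were lower (log2 fold change -0.52, limma adjusted p = 0.206). Rdh5 lay in the other direction, at 9.27 to 9.95 in WT and 10.17 to 10.75 in SHIVA livers (0.67, limma adjusted p = 0.25). Rdh1 was near the dim end, at 3.98 to 4.81 in WT and 4.92 to 5.76 in SHIVA livers (0.80, adjusted p = 0.249). Some Rdh genes are close copies of each other, and the probes of such genes may share signal. The brightest enzymes of the list overlapped between genotypes. Adh1, an alcohol dehydrogenase that oxidises retinol, had a log2 fold change of -0.16 (limma adjusted p = 0.796), Rdh7 0.15, Aldh8a1 0.18, and Dhrs3, which reduces retinal back to retinol and is induced by retinoic acid, 0.03 (adjusted p = 0.973).

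The 5 other receptors were all tested and none passed, with 0 under an unadjusted p of 0.05. Rara, Rxra and Rxrb had log2 fold changes of -0.02, -0.04 and -0.05, and Rarg had 0.20. Rxrg, at 10.42 to 10.47 in WT and 10.09 to 10.31 in SHIVA livers, did not overlap (-0.23, limma adjusted p = 0.495). Of 9 retinoic acid responsive genes 7 were tested, 3 below 0 and 4 above, with a median of 0.03, and limma called 0 of them, with 3 under an unadjusted p of 0.05. Tgm2, transglutaminase 2, was at 11.51 to 12.40 in WT and 12.18 to 12.87 in SHIVA livers (0.62, limma adjusted p = 0.335). Rarres1, retinoic acid receptor responder 1, was at 9.55, 9.95 and 9.74 in WT and 9.23, 9.22, 9.26 and 8.65 in SHIVA livers, lower in all of the latter (-0.66, adjusted p = 0.225 from limma). The responsive genes thus had members on either side, with Tgm2 above 0 and Rarres1 and Nrip1 below.

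**Figure D4:**
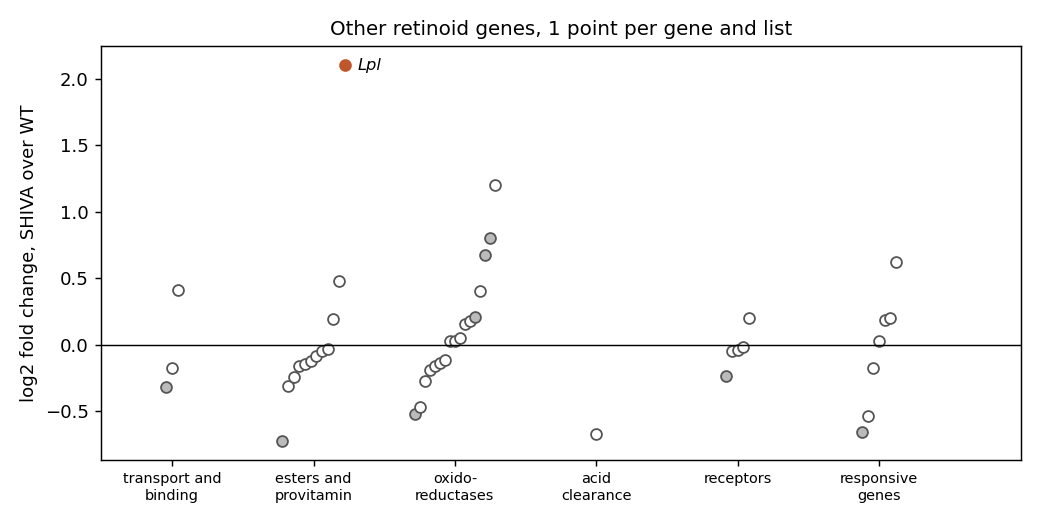
Log2 fold change of SHIVA over WT livers (vertical axis) for the tested genes of 6 retinoid lists other than the members (horizontal axis), 1 point per gene and list, 3 WT against 4 SHIVA livers. The filled coloured point, Lpl, was called, grey points did not overlap between genotypes without being called, and open points overlapped.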

How the data were processed

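Liver RNA of 3 WT and 4 SHIVA mice was measured on single-colour Agilent arrays, 1 mouse per array. The authors deposited scanner intensities from Agilent Feature Extraction 10.5.1.1, which also gave flag scores for background and uneven spots, per the file headers, and a table of log2 values quantile normalized in R, whose ranks equal those of the mean signal without background correction (rank correlation 1.000000). Here the processed intensities were quantile normalized and log2 transformed in R 4.3.3 with limma 3.58.1. Control spots (3671 of 62976) and the 120 to 163 flagged spots per array were left out. The brightest probe stood for a gene, and genes well above background on at least 3 of 7 arrays were tested with lmFit, eBayes and Benjamini-Hochberg adjustment over 20002 genes. Probe positions are mm9, and 26413 of 55681 probes were named through RefSeq (GRCm38.p6). Alternatives changed background correction, scaling, the filter, the choice of probe, weights, a replicate block, the test (the methods' t-test) and the livers used. The members and lists were chosen with earlier results of these data known, and 1 gene of the lists is not reported here. Named in each list were the genes called, those without overlap and up to 4 of the brightest, with some others and the marker genes added after their values were seen. The number of arrays limits the precision.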

Additional observations from a re-analysis of the deposited data

Results flagged for a closer look

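Of 19 values examined for single livers that stand apart within the 4 SHIVA mice, 2 did. Chance gives about 0.95 for values that are independent and unselected. The 19 held both probes of Rarb and 9 genes picked for no overlap in these same data, so that figure is only a rough guide. The dimmer probe of Rarb was at 4.72 in SHIVA_3, against 5.38 to 5.42 in the other SHIVA livers. Rarres1 was at 8.65 in SHIVA_4, against 9.22 to 9.26. These were different livers.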

How the results depend on the processing

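Of the members, Retsat, Rbp4, Cyp26b1 and Aldh1a1 kept their direction under all 18 alternatives, and Aldh1a2 under 17, as the filter on all 7 arrays removed it. Retsat lost its call with 75th percentile scaling (-1.57, adjusted p = 0.0525), with no filter on dim probes (-1.56, 0.155), with every probe fitted by itself (-1.56, 0.0541) and with the methods' t-test (-1.56, 0.254), and leaving out 1 liver gave -1.80 to -1.30. The genes called, 75 as reported, became 142 with the mean signal without background correction, 142 with the authors' log2 table, 13 without the filter, 268 with array weights and 0 with the methods' t-test after adjustment (2301 unadjusted), and 3 to 416 without 1 liver. The members called, 1 as reported, became 0 with 75th percentile scaling, no filter, every probe by itself or the t-test, 2 with array weights and 0 to 2 without 1 liver. Where 2 were called, with array weights or without WT_3, the second was Aldh1a2. As it was tested only because of its SHIVA values, that call is not a measure of a difference. The other retinoid genes called, 1 as reported, became 0 without the filter or with the t-test, and 0 to 1 without 1 liver. Signs changed on leaving out 1 liver for Lrat (-0.29 to 0.20), Cyp26a1 (-0.0525 to 0.725), Rarb (-0.253 to 0.0863) and Rdh10 (-0.13 to 0.19). The cause of these changes was not tested. With 75th percentile scaling the median of all genes was -0.0237. Genes near background, such as Aldh1a2, are limited by signal.

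Deviations from the genotype means correlated at -0.05, 0.01 and 0.24 between mice of the same number. These values gave no clear sign that the numbers pair the mice, but so few correlations cannot exclude it. With a replicate block 32 genes, 0 members and 0 other retinoid genes were called, Retsat was at -1.61 (limma adjusted p = 0.11), and Lrat turned to 0.0172.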
